A study of Mus musculus with 12 samples.

Results

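The receptor for interleukin 2 is built from 3 chains, encoded in the mouse by Il2ra, Il2rb and Il2rg, and these 3 genes, of 45321 genes quantified, were followed here. They were taken by name and not by their values. Messenger RNA had been measured in total CD4+ T cells of the spleen of C57BL/6 mice, obtained by a purification that leaves the CD4+ cells untouched. Every library came from cells kept for 1 h with ethanol, the solvent, or with 1 µM cyclosporin A (CsA), and these cells were then either left without a stimulus (US) or given 10 nM phorbol 12-myristate 13-acetate and 1 µM ionomycin together for 2 h (PI). The 4 groups were therefore ethanol_US, CsA_US, ethanol_PI and CsA_PI, with 3 libraries in each and 12 in all. Purified total CD4+ cells hold naive, memory and regulatory T cells together, so each value is an average over these cells, and fewer cells of a type cannot be told apart from less RNA per cell.

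The chains differ in what they do. Il2ra encodes the alpha chain (CD25), which raises the affinity of the receptor for its ligand and has no signalling tail of its own; regulatory T cells carry it at rest, and other T cells gain it on activation. Il2rb encodes the beta chain (CD122), which binds the kinase Jak1, recruits Stat5 and also serves the receptor for Il15. Il2rg encodes the common gamma chain (CD132), which binds Jak3 and is shared by the receptors for Il2, Il4, Il7, Il9, Il15 and Il21. Phorbol ester activates protein kinase C and ionomycin raises intracellular calcium; calcium activates the phosphatase calcineurin, which CsA blocks and which otherwise moves NFAT factors into the nucleus.

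On the mm10 assembly, Il2ra (ENSMUSG00000026770) lies on the plus strand of chromosome 2 from 11642807 to 11693193 and spans 50.4 kb. Il2rb (ENSMUSG00000068227) lies on the minus strand of chromosome 15 from 78479256 to 78495271 and spans 16.0 kb, and Il2rg (ENSMUSG00000031304) lies on the minus strand of chromosome X from 101264378 to 101268255 and spans 3.88 kb. The 250 bases upstream of the transcript start were available from RefSeq (GRCm38.p6) for Il2ra and Il2rg, 2 of the 3 genes. No window was available for Il2rb, so its absence here says nothing about its response. The windows are shown because both genes rose with stimulation, as given below, and because NFAT and NF-kB are among the factors that the stimulus engages. The first runs over chr2:11642542-11642791 on the plus strand and the second over chrX:101268256-101268505 on the minus strand, both written 5′ to 3′, with bases covered by a motif match in capitals.
Il2ra: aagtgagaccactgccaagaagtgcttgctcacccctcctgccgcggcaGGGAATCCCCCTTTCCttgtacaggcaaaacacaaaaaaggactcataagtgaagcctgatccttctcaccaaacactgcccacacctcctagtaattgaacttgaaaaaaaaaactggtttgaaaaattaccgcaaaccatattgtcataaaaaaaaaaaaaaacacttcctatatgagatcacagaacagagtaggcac
Il2rg: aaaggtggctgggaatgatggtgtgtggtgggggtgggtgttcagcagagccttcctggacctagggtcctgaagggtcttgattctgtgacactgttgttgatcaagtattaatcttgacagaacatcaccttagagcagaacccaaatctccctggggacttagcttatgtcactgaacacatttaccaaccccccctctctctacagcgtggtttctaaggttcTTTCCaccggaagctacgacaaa
Letter patterns of 4 factor families were searched on both strands: GGAAA for NFAT, TGANTCA for AP-1, GGGNNNNNCC for NF-kB and TTCNNNGAA for STAT. In Il2ra, overlapping matches to the NF-kB pattern covered bases -201 to -191 before the start, and a match to the NFAT pattern on the minus strand followed directly at -190 to -186. In Il2rg, 1 match was found, to the NFAT pattern on the minus strand at -23 to -19. Over all 32851 upstream windows of this length, 55.6% held the NFAT pattern, 45.8% the NF-kB pattern, 6.75% the AP-1 pattern and 7.02% the STAT pattern, so the matches found are common ones.

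Library totals ran from 10523816 to 18468044 estimated counts. A count of 3 corresponded to between 0.162 and 0.285 CPM (counts scaled to library size), which is far below every gene-level CPM given here for the 3 chains. The T cell genes Cd3e, at 176 to 314 CPM, and Cd4, at 198 to 448 CPM, were high in all libraries. The summed level of 10 markers of CD8 and natural killer cells was 142 to 273 CPM over the libraries. Of the CD8 chains, Cd8a averaged at most 2.39 CPM in any group and Cd8b1 averaged 12.6 to 17.5 CPM. The highest group mean of the others ran from 4.27 CPM for Ncr1 to 82.6 CPM for Nkg7, with Klrk1 at 76.9 CPM. B cell markers varied with the replicate number: the summed level of the 7 listed genes was 394 to 988 CPM in replicate 2 of the 4 groups and 72.6 to 153 CPM in replicates 1 and 3, and none of the 7 was at 0 in any group. Markers of myeloid and dendritic cells did so too: the 9 listed genes summed to 201 to 220 CPM in replicate 2 and 54.2 to 94.8 CPM in replicates 1 and 3. The library CsA_PI 2 stood apart. For all 3 chains it lay inside the range of the 6 unstimulated libraries, in CPM and in TPM (transcript abundance corrected for length and scaled to a fixed sum in each library), whereas CsA_PI 1 and CsA_PI 3 lay outside it. The 18 target and feedback genes treated below summed to 1653 CPM in CsA_PI 2. Their sum was 1657 to 1841 CPM in ethanol_US, 1468 to 1733 CPM in CsA_US and 4235 to 4261 CPM in CsA_PI 1 and 3. The 14 factors with known sites at Il2ra summed to 1747 CPM in CsA_PI 2 and 4188 to 4678 CPM in CsA_PI 1 and 3. In CsA_US they summed to 1598 to 1786 CPM. The memory T cell marker sum of CsA_PI 2, 578 CPM, lay above the resting maximum of 565 CPM. Its values are therefore given apart, and the fold changes of the chains are given with all 12 libraries and with the 11 that remain without it. The library was set apart on values of the same genes that are tested. The p-values of the chains from 11 libraries are therefore not independent of that choice. Other values are for 12 libraries unless 11 is stated.

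Il2ra had the lowest level of the 3 chains in resting cells and the largest increase with stimulation. It measured 52.7, 34.7 and 55.5 CPM in the ethanol_US libraries and 44.7, 29.8 and 44.0 CPM in CsA_US. It measured 858, 719 and 896 CPM in ethanol_PI, and 662 and 709 CPM in CsA_PI 1 and 3 against 36.4 CPM in CsA_PI 2. The stimulated libraries other than CsA_PI 2 thus lay at 662 CPM or more and all resting ones at 55.5 CPM or less, and CsA_PI 1 and 3 lay just under the lowest ethanol_PI library. Group means were 47.6 ± 11.3 CPM in ethanol_US, 39.5 ± 8.44 CPM in CsA_US and 824 ± 93.2 CPM in ethanol_PI (SD, n = 3 each).

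Il2rb was present at rest and showed 3 levels. It measured 358, 437 and 245 CPM in ethanol_US and 455, 344 and 304 CPM in CsA_US. It measured 704, 598 and 655 CPM in ethanol_PI, all above the 6 resting libraries. In CsA_PI 1 and 3 it measured 1210 and 1203 CPM, above every other library, and in CsA_PI 2 it measured 429 CPM. On the TPM scale, which corrects for transcript length and is relative to the total of each library, the step from ethanol_US (230, 293 and 160 TPM) to ethanol_PI (298, 276 and 299 TPM) overlapped between the groups, while CsA_PI 1 and 3, at 567 and 644 TPM, again lay above all other libraries.

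Il2rg was the most abundant chain per unit of transcript length in every library. It measured 1070, 711 and 1491 CPM in ethanol_US and 933, 872 and 1144 CPM in CsA_US. It measured 3809, 3084 and 3716 CPM in ethanol_PI, and 3428 and 3831 CPM in CsA_PI 1 and 3 against 764 CPM in CsA_PI 2. The stimulated libraries with and without CsA overlapped each other and lay above all resting ones, CsA_PI 2 excepted. The order of mean TPM was Il2rg, Il2rb, Il2ra in resting cells, at 1608, 228 and 22.0 TPM in ethanol_US. In ethanol_PI the means were 3494 TPM for Il2rg, 291.0 TPM for Il2rb and 291.5 TPM for Il2ra, and the difference of the last pair was within their spread.

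**Figure D1:**
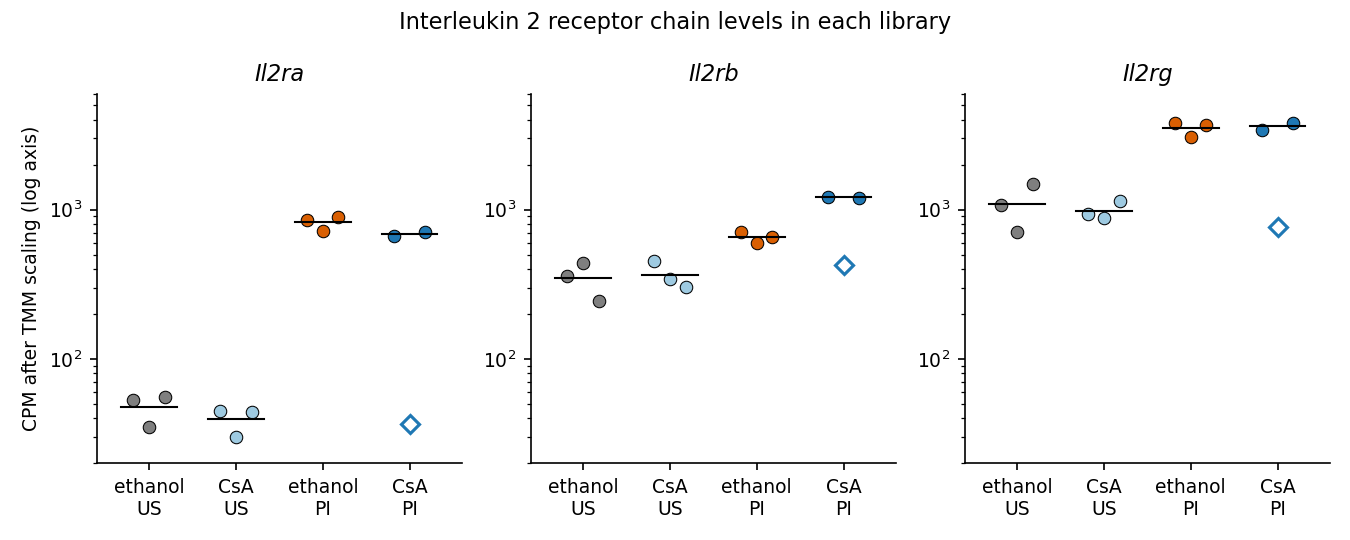
Level of each receptor chain in each library, in CPM after TMM scaling on a log axis, by group (US unstimulated, PI phorbol ester with ionomycin). Circles are libraries, the open diamond is CsA_PI 2, and bars are group means without that library. Il2rg reached like levels in ethanol_PI and in CsA_PI 1 and 3. Il2ra lay at 662 and 709 CPM in CsA_PI 1 and 3 and at 719 to 896 CPM in ethanol_PI. Il2rb was higher in CsA_PI 1 and 3, at 1210 and 1203 CPM, than in ethanol_PI, at 598 to 704 CPM.

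The first comparison asked what stimulation did to cells in ethanol. In this comparison 39.8% of 14398 genes tested were called with 12 libraries, at a Benjamini-Hochberg adjusted p under 0.05 in edgeR's quasi-likelihood test, and 43.7% of 15057 with 11, so a call by itself was common. Il2ra rose 17.3-fold, a log2 fold change of 4.11 ± 0.82 (SE) with an adjusted p of 0.00283, and the value with 11 libraries was 4.06 ± 0.23 (adjusted p = 2.94e-08). Il2rg rose 3.24-fold (log2 1.70 ± 0.47, adjusted p = 0.0129), and 1.64 ± 0.23 on the log2 scale with 11 libraries (adjusted p = 7.45e-05). For Il2rb the 12 libraries gave a log2 difference of 0.91 ± 0.34 that missed the threshold (adjusted p = 0.0516), and the 11 gave a rise of 0.85 ± 0.21 (adjusted p = 0.0048). The median over all genes tested was -0.025 on the log2 scale with 12 libraries.

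The size of the Il2rb difference depended on how libraries were scaled. Scaling by library totals in place of TMM moved the median of all genes by -0.61 in this comparison, and Il2rb was then 0.30 higher on the log2 scale, with an adjusted p of 0.405 for 12 libraries and 0.212 for 11. Il2ra stayed called under all 8 other settings, with log2 values between 3.49 and 4.18 and adjusted p-values up to 0.0134. Il2rg stayed called in 6 of 8; its adjusted p was 0.0506 with library totals (log2 1.08) and 0.0517 with no filter on low counts (1.57), and it was 0.0516 without the library ethanol_US 2 (1.46).

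The second comparison asked whether stimulation still raised the chains in cells that had received CsA. With 12 libraries 5.28% of genes were called and with 11 libraries 28.7%. Il2ra rose by 3.57 ± 0.80 on the log2 scale (adjusted p = 0.043), and by 4.08 ± 0.24 with 11 libraries (adjusted p = 2.58e-07). Il2rb rose by 1.37 ± 0.35 (adjusted p = 0.0463), and by 1.69 ± 0.23 with 11 libraries (adjusted p = 0.000148). Il2rg showed a log2 difference of 1.44 ± 0.47 that missed the threshold with 12 libraries (adjusted p = 0.083) and rose by 1.86 ± 0.25 with 11 (adjusted p = 0.000145). All 3 chains were thus called without CsA_PI 2, as 17.0-fold, 3.22-fold and 3.62-fold rises of Il2ra, Il2rb and Il2rg. With CsA_PI 2 included the calls were less stable: Il2ra stayed called in 3 of 8 other settings and Il2rb in 2 of 8, and with 1 library left out at a time they stayed called in 2 and in 1 of 12. Blocking on the replicate number ended the call of Il2rb with 12 libraries (log2 1.34, adjusted p = 0.0541).

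The third comparison set CsA against ethanol within stimulated cells, where 23.0% of genes were called with 12 libraries and 22.5% with 11. With 12 libraries none of the 3 chains was called by edgeR, none had an unadjusted p under 0.05, and DESeq2 called none. Without CsA_PI 2, Il2rb was 1.90-fold higher under CsA, a log2 rise of 0.93 ± 0.23 with a 95% confidence interval from 0.43 to 1.42 (adjusted p = 0.0108). This call held under 7 of 7 other settings, with log2 values between 0.89 and 1.10, and was lost when CsA_PI 1 (log2 0.89, adjusted p = 0.0668) or CsA_PI 3 (log2 0.93, adjusted p = 0.0571) was also left out. That leaves 1 stimulated library under CsA, which the fit assumes to vary like the libraries of the other groups. With all 12 libraries the Il2rb difference was 0.54 ± 0.34 (adjusted p = 0.296).

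For Il2ra and Il2rg no difference between CsA and ethanol in stimulated cells was called with 12 or with 11 libraries. Without CsA_PI 2, Il2ra differed by a log2 value of -0.23 ± 0.22 (adjusted p = 0.533), about the size of its error. The 95% interval ran from -0.72 to 0.26. The 7 other settings with 11 libraries gave log2 values from -0.39 to -0.049, and none was called. A lower level of Il2ra under CsA was thus neither shown nor excluded. With the same 11 libraries, Il2rg differed by 0.075 ± 0.25 (adjusted p = 0.885), with an interval from -0.48 to 0.62. With 12 libraries the values were -0.81 ± 0.73 for Il2ra (adjusted p = 0.48) and -0.40 ± 0.46 for Il2rg (adjusted p = 0.59).

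CsA in cells without a stimulus was the fourth comparison, in which 0.00695% of genes were called with 12 libraries and 0.0465% with 11. None of the 3 chains was called by edgeR or by DESeq2 with either set, and none had an unadjusted p under 0.05. The log2 differences with 11 libraries were -0.26 ± 0.20 for Il2ra, 0.089 ± 0.21 for Il2rb and -0.14 ± 0.23 for Il2rg, with 95% intervals of -0.70 to 0.18, -0.36 to 0.54 and -0.63 to 0.35. With 12 libraries they were -0.27 ± 0.73, 0.083 ± 0.34 and -0.15 ± 0.46. Blocking on the replicate number, the 11 libraries gave 15 called genes in place of 7, with no chain among them. The levels of each chain in CsA_US overlapped with those in ethanol_US.

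The fifth comparison, the interaction, asked whether the change with stimulation differed between CsA and ethanol, taking the log2 value under CsA less the one in ethanol, and 9.72% of genes were called with 12 libraries and 12.4% with 11. No chain was called with 12 libraries by edgeR or by DESeq2, and none had an unadjusted p under 0.05. With 11 libraries the change of Il2rb with stimulation was 0.84 ± 0.31 larger under CsA on the log2 scale, with an adjusted p of 0.107 in edgeR, and it was the chain with an unadjusted p under 0.05, at 0.0188. DESeq2 called none of the 3 with 11 libraries. For Il2ra the difference was 0.027 ± 0.30 (adjusted p = 0.971, 95% interval -0.63 to 0.68) and for Il2rg 0.21 ± 0.34 (adjusted p = 0.772, 95% interval -0.52 to 0.95). A larger effect of stimulation on Il2rb under CsA than in ethanol was therefore not shown at the adjusted threshold.

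**Figure D2:**
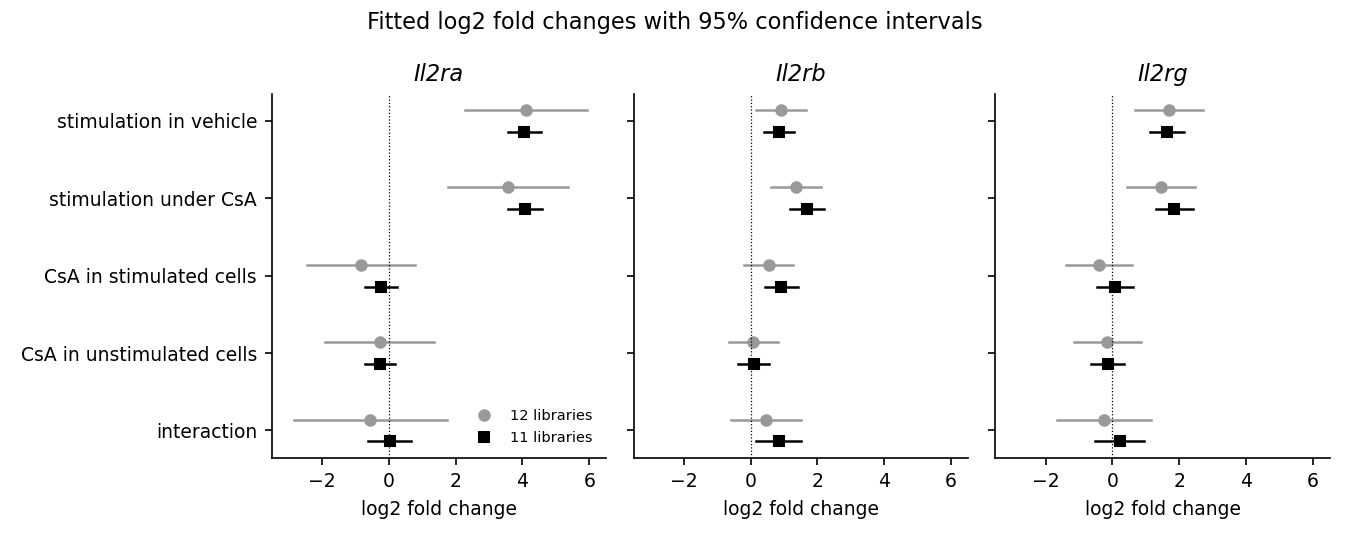
Fitted log2 fold change of each chain in the 5 comparisons, with 95% confidence intervals, for the fit to 12 libraries (grey circles) and to the 11 without CsA_PI 2 (black squares). The intervals for Il2ra stimulation lie well above 0 in both fits, and the interval of Il2rb for CsA in stimulated cells lies above 0 in the 11-library fit alone, at 0.43 to 1.42.

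The share of ribosomal RNA and the levels of cell markers also differed among these libraries. In each group the ribosomal RNA share was highest in replicate 2, so it varied with the replicate number as well as with the group. The share of counts on annotated ribosomal RNA genes was 6.60% and 3.76% in CsA_PI 1 and 3 and 1.398 to 2.37% in ethanol_PI, the comparison in which Il2rb was higher. In resting cells this share was 1.75, 8.50 and 0.812% in ethanol_US 1, 2 and 3, in which Il2rb measured 358, 437 and 245 CPM and Il2rg 1070, 711 and 1491 CPM. It was 2.47, 4.89 and 2.02% in CsA_US 1, 2 and 3, with Il2rb at 455, 344 and 304 CPM, and 7.85% in CsA_PI 2, with Il2rb at 429 CPM. The part of ribosomal RNA in the results was not tested.

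Natural killer cells and memory T cells are known to carry Il2rb, and regulatory T cells to carry Il2ra at rest. The summed level of 10 CD8 and natural killer cell markers was 184 to 256 CPM in ethanol_PI and 218 to 273 CPM in CsA_PI 1 and 3, and none was at 0 in either. With 11 libraries, where 22.5% of all genes were called, 3 of these 10 (Klrb1c, Klrd1 and Klrg1) were higher under CsA in stimulated cells and 1 (Nkg7) was lower. Of 8 memory T cell markers, whose sum was 863 to 986 CPM in ethanol_PI and 816 to 825 CPM in CsA_PI 1 and 3, 1 was higher (Cd44) and 2 were lower (Cxcr3 and Itgb1). Of 11 regulatory T cell markers, summing to 1192 to 1398 CPM in ethanol_PI and 1071 to 1197 CPM in CsA_PI 1 and 3, 1 was higher and 4 were lower. The sum hides opposite steps from ethanol_PI to CsA_PI 1 and 3. Mean Ctla4 went from 462 to 124 CPM and mean Tnfrsf18 from 321 to 607 CPM. Foxp3 went from 52.5 to 30.5 CPM, Ikzf2 from 96.5 to 41.4 CPM, Nrp1 from 47.7 to 7.90 CPM and Gpr83 from 30.7 to 4.01 CPM. Izumo1r went from 63.9 to 46.0 CPM and Itgae from 11.3 to 7.65 CPM. Smaller steps upward were seen for Lrrc32 (75.2 to 85.3 CPM), Capg (157.6 to 176.4 CPM) and Ikzf4 (3.34 to 4.58 CPM). With stimulation in ethanol, where 39.8% of all genes were called, 4 of these 11 rose and 1 fell, and their sum was 739 to 900.0 CPM in ethanol_US and 1192 to 1398 CPM in ethanol_PI. Foxp3, the defining factor of regulatory T cells, was not among those called with stimulation in ethanol and averaged 44.8 and 52.5 CPM in these 2 groups. The part of these markers in the results was not tested.

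The balance between the chains was read from their shares of the summed TPM of all 3, which needs no scaling between libraries. The Il2ra share was 0.932 to 1.54% in ethanol_US and 0.874 to 1.14% in CsA_US, and it was 6.52 to 7.74% in ethanol_PI. In CsA_PI 1 and 3 it was 5.31 and 5.16%, between the resting and the ethanol_PI values, and in CsA_PI 2 it was 1.16%. The Il2rb share was 6.67 to 22.0% in ethanol_US and 10.6 to 18.4% in CsA_US, a wide spread, and a narrow 6.79 to 7.38% in ethanol_PI. It was 13.7 and 12.01% in CsA_PI 1 and 3 and 20.3% in CsA_PI 2, so that no CsA_PI library fell into the ethanol_PI range.

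Il2rg made up most of the sum in each library, from 76.8 to 92.4% in ethanol_US, 85.5 to 86.2% in ethanol_PI and 78.5 to 82.8% in CsA_PI. With 3 libraries against 3, an exact two-sided permutation test of a share cannot give a p under 0.1. That smallest value was reached by Il2ra for both stimulation comparisons and by all 3 chains for CsA in stimulated cells, all with an adjusted p of 0.24 over the 12 tests. The mean differences there were 5.93 percentage points for Il2ra with stimulation in ethanol, 8.17 points for Il2rb and -3.26 points for Il2ra with CsA in stimulated cells. The shares of a library add up to a fixed total, so a higher share of 1 chain lowers the others. The tests of the 3 chains are therefore not separate results, and those with CsA_PI include CsA_PI 2. Without CsA_PI 2 the differences with CsA were 5.68 points for Il2rb and -1.90 points for Il2ra, and 2 libraries against 3 give no smaller p. The ratio of Il2rb to Il2ra TPM was 7.15 to 19.1 in ethanol_US, 0.877 to 1.118 in ethanol_PI and 2.33 to 2.57 in CsA_PI 1 and 3. The Il2ra TPM in these ratios includes short transcript models: the full-length Il2ra-201 alone measured 179, 167 and 204 TPM in ethanol_PI, against 276 to 299 TPM for Il2rb. The Il2rg TPM in the shares likewise includes other models than the main Il2rg-201. That model alone measured 1828 to 2173 TPM in ethanol_PI, of 3202 to 3759 TPM for the gene.

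**Figure D3:**
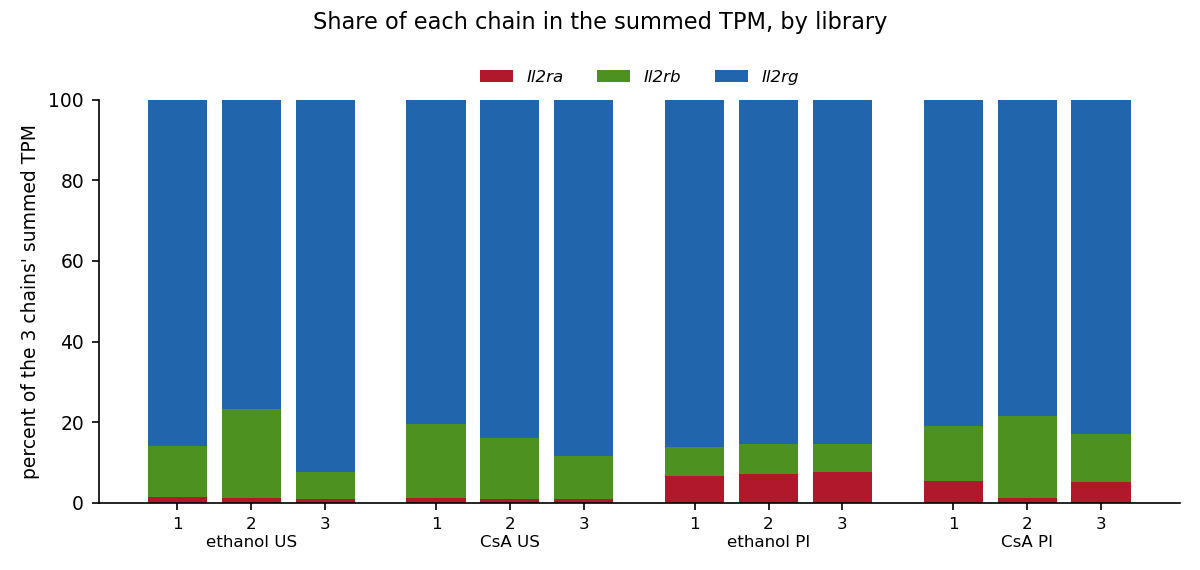
Share of each chain in the summed TPM of Il2ra, Il2rb and Il2rg, 1 bar per library, in percent. The Il2ra band is widest in ethanol_PI, at 6.52 to 7.74%, and the Il2rb band there, at 6.79 to 7.38%, is narrower than in each CsA_PI library.

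The genes are quantified through several annotated transcripts, and the split between overlapping transcripts is an estimate from reads that may fit more than 1 of them. For Il2ra the full-length transcript Il2ra-201, with 8 exons and 4412 bases, took 92.5 to 98.9% of the estimated counts. The short protein-coding model Il2ra-202, whose 2 exons cover only the start of the gene, took 0.649 to 3.05% in ethanol_US, 0.300 to 1.34% in CsA_US, 4.81 to 5.53% in ethanol_PI, 3.36 and 3.58% in CsA_PI 1 and 3, and 1.61% in CsA_PI 2. Its share was highest in ethanol_PI, without overlap with another group. In the resting libraries and CsA_PI 2 the share rested on only 1.76 to 28.5 estimated counts.

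For Il2rb, the models Il2rb-201 and Il2rb-202 have 10 exons each. Il2rb-202 took 7.56, 29.8 and 15.8% of the gene's counts in ethanol_US and 24.4 to 27.9% in CsA_PI, so the spread within resting cells was larger than any step between groups. The length of Il2rb-201 was 2692 bases in the deposited tables and 4194 bases in the annotation used here. Length enters the TPM of Il2rb, and an effect of the difference on its estimated counts was not tested.

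For Il2rg, the main model Il2rg-201, with 8 exons and 1670 bases, took 79.8 to 83.8% of the counts. The retained-intron model Il2rg-204 took 4.35 to 5.16% in ethanol_US and 5.30 to 5.47% in CsA_US. It took 2.13 to 2.26% in ethanol_PI, 3.07 and 3.08% in CsA_PI 1 and 3, and 4.27% in CsA_PI 2. Stimulated libraries thus had a lower share of this model than all resting ones, and the share was higher with CsA than with ethanol. A gene that overlaps Il2rg, Gm20489, had at most 26.6 estimated counts in any library, or 0.221% of those of Il2rg.

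**Figure D4:**
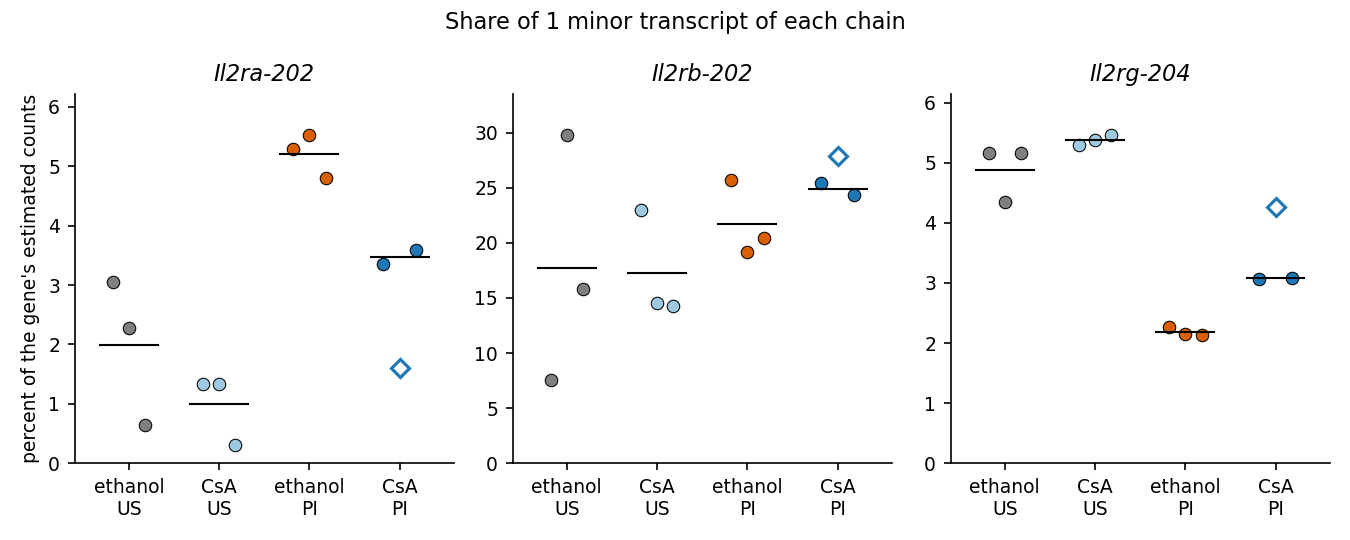
Share of 1 minor transcript model of each chain among the gene's estimated counts, in percent, by group; circles are libraries, the open diamond is CsA_PI 2, and bars are means without it. The shares of Il2ra-202 and Il2rg-204 in CsA_PI 1 and 3 lie between those of resting cells and of ethanol_PI, and Il2rb-202 shows no such order. For Il2ra-202 the resting libraries and CsA_PI 2 had 28.5 estimated counts or fewer.

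Of 6 cytokines that signal through Il2rg, 3 could be tested with 12 libraries, and all 3 rose with stimulation in ethanol and were lower with CsA in stimulated cells, where 39.8% and 23.0% of all genes were called. Il2, the ligand itself, averaged 1.95 CPM in ethanol_US, 1885 CPM in ethanol_PI and 24.4 CPM in CsA_PI 1 and 3. With all 12 libraries, where CsA_PI averaged 17.1 CPM, the rise was 9.91 and the difference under CsA -6.79 on the log2 scale (adjusted p = 1.25e-05 and 9.39e-05). Il4, which drives T helper 2 differentiation, averaged 7.57, 618 and 6.36 CPM in the same groups, and Il21, which acts on B cells, 1.84, 191 and 0.826 CPM. The interaction was called for all 3 (9.72% of all genes), with log2 values of -4.84 for Il2, -4.55 for Il4 and -4.25 for Il21. Il9 averaged 1.59 CPM in ethanol_PI and had no count after rounding in the ethanol_US, CsA_US or CsA_PI libraries. Il15 and Il7 did not pass the filter on low counts with 12 libraries. With 11 libraries Il15 was tested and not called, at -0.37 for stimulation in ethanol (adjusted p = 0.744) and -0.95 for CsA in stimulated cells (adjusted p = 0.555).

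With stimulation under CsA, where 5.28% of all genes were called with 12 libraries and 28.7% with 11, Il2 still rose. The rise was 5.07 on the log2 scale with 12 libraries (adjusted p = 0.0395) and 5.57 with 11 (adjusted p = 2.12e-07), from a mean of 0.506 CPM in CsA_US. With 12 libraries 2 of the 3 cytokines were called there, a count that was 0 in 11 of 20 alternatives. With 11 libraries the interaction was -4.28 for Il2 (adjusted p = 0.000119), which is beyond its threshold, and 0.027 for Il2ra (adjusted p = 0.971). All comparisons draw on the same 4 groups, so that comparisons with a group in common share its libraries.

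Other receptor chains that pair with Il2rg or Il2rb moved in both directions. Of 5, 3 rose and 1 fell with stimulation in ethanol, against 39.8% of all genes called, and the median of the 5 was 0.72 on the log2 scale. Il15ra, the alpha chain for Il15 and a neighbour of Il2ra, rose from 2.10 to 34.8 CPM, a log2 change of 4.05 (adjusted p = 0.00122). Il4ra, the chain that binds Il4, rose by 1.18 on the log2 scale (adjusted p = 0.00194), and Il21r, the chain that binds Il21, rose by 0.72 (adjusted p = 0.00776). Il7r, the chain that binds the survival cytokine Il7, fell by 3.24 in log2 (adjusted p = 2.41e-05), from 519 to 54.8 CPM. Il9r, at 3.83 and 2.05 CPM, was not called.

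With CsA in stimulated cells, where 23.0% of all genes were called, the median of the 5 was -0.36 and 1 was called (2 when blocking on the replicate number): Il7r, which was higher by 2.28 on the log2 scale (adjusted p = 0.000427) and by 1.80 with 11 libraries (adjusted p = 0.000106). Il15ra differed by -1.36 (adjusted p = 0.163), and by -0.78 with 11 libraries (adjusted p = 0.0561). With stimulation under CsA, 1 of the 5 rose with 12 libraries (5.28% of all genes called), Il15ra by 2.83 (adjusted p = 0.0463), and this count was 0 in 17 of 20 alternatives. With 11 libraries (28.7% called) 2 rose and 1 fell: Il15ra by 3.34, Il4ra by 0.76, and Il7r by -1.54 on the log2 scale. The interaction was called for 1 of the 5 (9.72% of all genes), Il7r, at 2.25 (adjusted p = 0.00903).

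Of 17 genes of receptor-proximal signalling, 4 rose and 5 fell with stimulation in ethanol (39.8% of all genes called), with a median of -0.052 on the log2 scale against -0.025 for all genes. The transcription factor Stat3 had the largest rise, 1.05 (adjusted p = 0.000896). With CsA in stimulated cells (23.0% called) 4 were higher and 3 lower, with a median of 0.15 against 0.059 for all genes, and the T cell receptor kinase Lck was lowest, at -1.12 (adjusted p = 0.00629). With stimulation under CsA 1 of 17 rose with 12 libraries (5.28% called), the kinase Ptk2b by 1.54 (adjusted p = 0.0395), a count that was 0 in 13 of 20 alternatives; with 11 libraries (28.7% called) 3 rose and 1 fell. These counts moved with single choices: with library totals 2 rose and 8 fell in ethanol, and without ethanol_PI 1 the count that fell was 3; without ethanol_PI 2 or without CsA_PI 1 a single gene was lower under CsA in stimulated cells. The interaction was called for 2 (9.72% of all genes), both positive.

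Of 18 target and feedback genes of interleukin 2 signalling, 12 rose and 2 fell with stimulation in ethanol (39.8% of all genes called), and 2 were higher and 10 lower with CsA in stimulated cells (23.0% called). Their medians were 1.56 and -1.02 on the log2 scale, against -0.025 and 0.059 for all genes. Myc, a growth factor-induced transcription factor, rose from 75.1 to 3755 CPM (log2 5.64, adjusted p = 0.000107) and was lower under CsA in stimulated cells by -2.90 (adjusted p = 0.00574). Ccnd3, a D-type cyclin, fell by 1.68 with stimulation (adjusted p = 9e-05). Bcl6, the factor that defines follicular helper T cells and that interleukin 2 signalling is known to lower, was higher under CsA by 1.75 (adjusted p = 0.000188).

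With stimulation under CsA, 5 of these 18 rose with 12 libraries (5.28% of all genes called) and none fell, and the count that rose was 0 in 12 of 20 alternatives. With 11 libraries (28.7% called) 9 rose and 1 fell, Ccnd3, at -0.99 (adjusted p = 0.00013). Myc rose most in both, by 3.69 (adjusted p = 0.0395) and 4.17 (adjusted p = 3.11e-07). The interaction was called for 2 positive genes and 1 negative one with 12 libraries (9.72% of all genes called), Bcl6 at 1.92 (adjusted p = 0.00282) being the largest and the cyclin Ccnd2 at -2.32 (adjusted p = 0.0405) the lowest.

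Of 14 factors with known sites at Il2ra, 10 rose and 2 fell with stimulation in ethanol (39.8% of all genes called). Their median was 1.63 on the log2 scale there and -0.45 with CsA in stimulated cells, against -0.025 and 0.059 for all genes. The NF-kB subunit Rel rose most, from 227 to 2368 CPM (log2 3.39, adjusted p = 7.26e-05), and the ETS factor Elf1 fell by 1.26 in log2 (adjusted p = 0.00091). With CsA in stimulated cells 2 were higher and 5 lower with 12 libraries (23.0% called), and 2 higher and 4 lower with 11 (22.5% called); without ethanol_PI 1 or ethanol_PI 2 the number higher was 1. Nfatc1, a calcineurin-dependent factor, was lower by -2.30 (adjusted p = 5.02e-06), and its mean of 212 CPM in CsA_PI 1 and 3 was close to the 210 CPM of ethanol_US. Nfatc2, another NFAT member, was higher by 1.53 (adjusted p = 0.000641), after a fall of 1.21 in log2 with stimulation in ethanol (adjusted p = 0.00161). It averaged 27.6 CPM in ethanol_US, 11.9 CPM in ethanol_PI and 35.5 CPM in CsA_PI 1 and 3. With stimulation under CsA 5 of the 14 rose with 12 libraries (5.28% called) and 8 with 11 (28.7% called), with none lower in either fit; the count with 12 was 0 in 13 of 20 alternatives. Rel had the largest rise, 2.11 (adjusted p = 0.0395) and 2.48 (adjusted p = 7.64e-06). The interaction was called for 2 positive and 3 negative factors (9.72% of all genes called), from -2.27 for Nfatc1 (adjusted p = 0.000228) to 1.30 for Nfatc2 (adjusted p = 0.0269).

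In cells without a stimulus, edgeR called none of the 60 pathway genes besides the chains for CsA, of which 57 could be tested with 12 libraries and 59 with 11. An unadjusted p under 0.05 was found for 5 with 12 libraries and 9 with 11, and DESeq2 called 2 and 5.

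**Figure D5:**
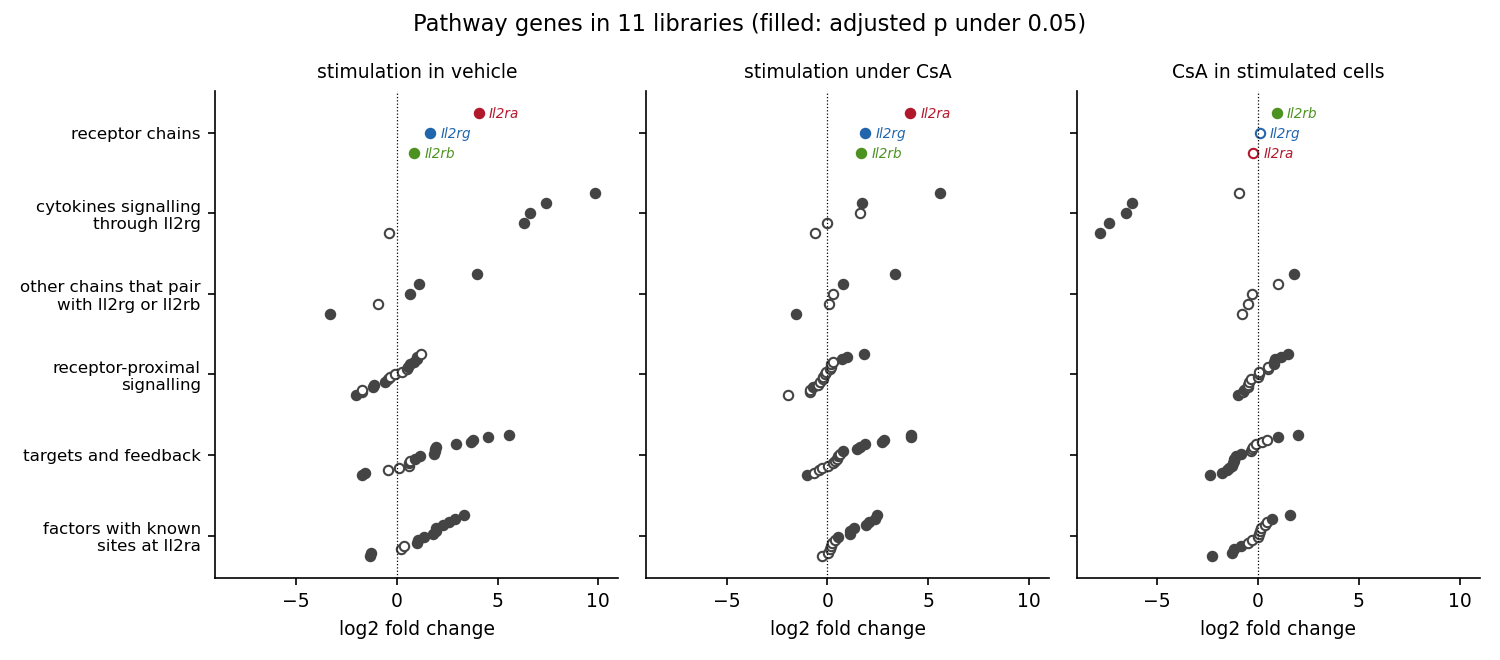
Log2 fold change of each tested pathway gene in the fit to 11 libraries, by list, for 3 comparisons; filled points had an adjusted p under 0.05, and the receptor chains are named. For CsA in stimulated cells the tested cytokines other than Il15 lie at -6.23 or lower, whereas Il2ra lies at -0.23, Il2rg at 0.075 and Il2rb at 0.93.

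Neighbouring genes were looked at to see whether a rise was shared along the chromosome. Beside Il2ra, Il15ra starts 12.1 kb beyond the end of the gene and rose as given above, and Rbm17, a splicing factor gene 38.7 kb away on the other side, rose by 1.49 ± 0.26 (adjusted p = 0.00075). Fbh1, a DNA helicase gene 49.4 kb away, fell by 1.49 ± 0.38 in log2 (adjusted p = 0.0074), and Gm17490, 16.5 kb away, had no count. Beside Il2rb, Tmprss6, Kctd17 and Sstr3 had group means under 0.541 CPM, and C1qtnf6, at 0.613 to 2.26 CPM, was not called. Beside Il2rg, none of Gm614, Foxo4, Med12 and Nlgn3 was called for stimulation in ethanol with either set of libraries, and Med12, a Mediator subunit 5.78 kb away, differed by -0.012 ± 0.22 (adjusted p = 0.975) where Il2rg rose by 1.70. With 11 libraries Med12 rose with stimulation under CsA, by 0.89 (adjusted p = 0.00817; 0.82 and 0.0501 with 12). Foxo4, a forkhead factor gene, was higher under CsA in stimulated cells with 11, by 1.27 (adjusted p = 0.0107; 0.99 and 0.0505 with 12).

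The genes whose log2 CPM followed each chain most closely differed between the chains. Over 12 libraries and 8020 genes, Pearson's r with Il2ra was highest for Mir155hg (0.996), the host gene of an activation-induced microRNA, then Hat1 and Ndfip2 (both 0.993) and Arl5b and Mapre1 (both 0.992), and the same 5 led over 11 libraries. Mir155hg averaged 7.34, 373 and 186 CPM in ethanol_US, ethanol_PI and CsA_PI 1 and 3. For Il2rb the 5 were Gm26809 (0.986), Gm12840 (0.982), Rab5c (0.976), Gm20400 (0.976) and C920009B18Rik (0.975), and over 11 libraries Chtop took the place of C920009B18Rik. Gm26809 averaged 1385 CPM in ethanol_US, 2446 CPM in ethanol_PI and 4689 CPM in CsA_PI 1 and 3, the same order as Il2rb.

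For Il2rg the 5 were the proteasome gene Psmc2 (0.985), the adhesion receptor gene Cd2 (0.985), Nfyb (0.984), the proteasome gene Psma2 (0.982) and Itm2a (0.980), with Psma3 in place of Psma2 over 11 libraries. Cd2 averaged 547 CPM in ethanol_US, 1436 CPM in ethanol_PI and 1249 CPM in CsA_PI 1 and 3. The points behind each r are the same libraries in 4 groups, so an r near 1 reflects mainly the steps between groups, and no p is given.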

How the data were processed

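Libraries had been made with Clontech SMART-seq from total RNA, per the labels' protocols; trimming with cutadapt, quantification with kallisto and the build mm10 are per the submitters' processing notes, and the versions and transcript annotation are not given in the sources used here. The deposited tables hold an estimated count per transcript (not scaled for depth) and TPM, per the file headers, with transcript length and effective length in bases. Of 109617 transcripts, 108214 matched GENCODE M21 on mm10 by identifier (92.5% at the same length); the 1403 others, 0.494 to 0.629% of counts, were left out.

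Counts and TPM were summed per gene, and counts were rounded. All 4 groups entered 1 edgeR fit (edgeR 4.0.16 in R 4.3.3): TMM scaling, a filter by group (minimum count 10, total 15) and robust quasi-likelihood tests, with Benjamini-Hochberg adjustment over all genes tested and calls at 0.05. It was run on 12 libraries and, as an alternative chosen with the data known, on 11. Standard errors (SE) were obtained from the F statistic of each test. CPM uses TMM-scaled totals; SD is over libraries. The alternatives were other scaling, no filter, DESeq2 1.42.0, limma 3.58.1 on log2(TPM + 1) and log2(TPM + 0.1), a replicate block, 2 groups at a time, and each library left out.

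Deviations from group means of libraries with the same number correlated above 0.1 in all 3 pairs for 3 of the 4 pairs of groups compared, and in 2 of 3 pairs for CsA_US with CsA_PI, where the lowest was 0.033. With 11 libraries, 1 of 2 pairs was above 0.1 for ethanol_PI with CsA_PI. For CsA_US with CsA_PI it was 0 of 2, at 0.0051 and 0.086. The labels tie the numbers to no animal or day. Fits with that number as a block are given where they change a call or a count.

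Nothing states that replicates came from separate animals, so the p-values rest on variation among libraries that may be technical replicates. The 3 genes, the lists and the tests were chosen with earlier results of these data known. Named genes were the 3 chains, each member of a list of 6 or fewer, per list and comparison the called gene with the largest rise and fall, 2 protein-coding neighbours on each side, and the 5 genes of at least 10 CPM nearest in pattern. Marker genes named beside small counts were chosen after their values were seen. Values of 1 listed gene that the rule would name are not reported here. Counting depth limits no gene-level value of the 3 chains, but it limits the Il2ra-202 shares of the resting libraries and of CsA_PI 2. Floors of 3 counts cover counting error only.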

Additional observations from a re-analysis of the deposited data

How the results depend on the processing

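Values are log2 fold changes. With 12 libraries, 248 of 297 alternatives for the 3 chains kept direction and side of the threshold, and with 11 libraries 244 of 267. For stimulation in ethanol with 12 libraries, Il2rb was called with DESeq2 (0.89) and with only the 2 groups compared (0.86), and Il2rg was not with library totals (1.08) or no filter (1.57). For stimulation under CsA with 12 libraries, Il2ra was not called with library totals (3.21), no filter (3.47), limma with a pseudocount of 1 (2.67) or 0.1 (2.73) or only 2 groups (3.57), and Il2rb not with library totals (1.05), no filter (1.28), the replicate block (1.34), limma (1.10 at both pseudocounts) or only 2 groups (1.37). Il2rg was called there with DESeq2 (1.42). The interaction of Il2rg turned to 0.031 with library totals.

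With 11 libraries, Il2rb in stimulation in ethanol was not called with library totals (0.30) or limma with a pseudocount of 1 (0.39), and its interaction was called with library totals (1.04) and no filter (0.85). Il2rg for CsA in stimulated cells turned to -0.080 with the replicate block, and the interaction of Il2ra turned to -0.0062 with RLE scaling, -0.0051 with DESeq2 and -0.14 with the replicate block. None of these turned values was called. The causes were not tested.

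With each library left out in turn from the 12, the range for stimulation in ethanol was 0.66 to 1.11 for Il2rb and 1.46 to 1.94 for Il2rg. For CsA in stimulated cells it was 0.33 to 0.93 for Il2rb and -0.75 to 0.075 for Il2rg, for CsA in unstimulated cells -0.11 to 0.29 for Il2rb and -0.38 to 0.16 for Il2rg, and for stimulation under CsA 3.14 to 4.08 for Il2ra, 1.15 to 1.69 for Il2rb and 1.09 to 1.86 for Il2rg. The interaction ranged from -0.97 to 0.027 for Il2ra and from -0.60 to 0.21 for Il2rg. From the 11, CsA in stimulated cells ranged from 0.83 to 0.94 for Il2rb and from -0.049 to 0.12 for Il2rg, CsA in unstimulated cells from -0.11 to 0.31 for Il2rb and from -0.36 to 0.15 for Il2rg, and the interaction from -0.15 to 0.20 for Il2ra, 0.62 to 1.04 for Il2rb and -0.079 to 0.44 for Il2rg.

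Shares are in percentage points. As a share of estimated counts in place of TPM, the Il2rg difference with stimulation in ethanol was -1.35 and the Il2rb difference with stimulation under CsA -0.35. Leaving out libraries gave -3.47 to 4.31 for Il2rg with stimulation in ethanol, -2.51 to 5.17 for Il2rb and -4.92 to 2.86 for Il2rg with CsA in unstimulated cells, and -1.92 to 2.37 for Il2rb with stimulation under CsA. Without CsA_PI 2 the differences with CsA in stimulated cells went from 8.17 to 5.68 for Il2rb and from -3.26 to -1.90 for Il2ra.

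The replicate block changed no call of a chain with 12 libraries other than that of Il2rb above. Genes called with 12 libraries moved by more than 1.5 times in 3 comparisons. For stimulation under CsA they numbered 760, and 5 with library totals, 1909 with DESeq2, 441 with the replicate block, 27 and 12 with limma at pseudocounts of 1 and 0.1, 0 with only 2 groups, and 0 to 4321 with a library left out. For the interaction they numbered 1400, and 787 to 1865 with a library left out. For CsA in unstimulated cells they numbered 1, and 17 with DESeq2, 0 with limma and 0 to 7 with a library left out. With 11 libraries, leaving out CsA_PI 1 or CsA_PI 3 took the count from 3393 to 2026 or 2054 for CsA in stimulated cells, from 4321 to 2783 or 2742 for stimulation under CsA, and from 1865 to 1189 or 1094 for the interaction; for CsA in unstimulated cells it went from 7 to 32 with no filter, 44 with DESeq2, 15 with the replicate block, 1 with only 2 groups and 4 to 12 with a library left out. With library totals the split of higher to lower calls was 1580 to 5437 for stimulation in ethanol (2892 to 2836 with TMM), 2870 to 1193 for CsA in stimulated cells (1485 to 1833), 5 to 0 for stimulation under CsA (561 to 199) and 950 to 531 for the interaction (509 to 891). Of 990 alternatives for the counts of the pathway lists, 148 moved the count by more than 1.5 times. Calls of the interaction ran from 1 to 4 positive ones for receptor-proximal signalling (2 as reported), from 1 to 2 positive and 0 to 5 negative ones for target and feedback genes (2 and 1), and from 0 to 2 positive ones for factors with sites at Il2ra (2).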
